A study of Mus musculus with 13 samples.

Results

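The HoxA cluster on mouse chromosome 6 was examined through 9 of its genes, the non-coding gene Hotairm1 and the coding genes Hoxa2, Hoxa3, Hoxa4, Hoxa5, Hoxa6, Hoxa7, Hoxa9 and Hoxa10, out of 55450 annotated genes (GENCODE M21, GRCm38/mm10). The genes were taken from a list by name, and the list was chosen with earlier results of these data known. A promoter was called in a library when a peak overlapped the window from 2 kb upstream to 1 kb downstream of any of the gene's annotated transcription starts. All peaks between 10 kb outside Hotairm1 and 10 kb outside Hoxa10 were also collected, a stretch of 103953 bp (chr6:52146902-52250854) called the HoxA window here. In it, overlapping peaks of all libraries joined into 16 merged peaks, out of 99746 in the genome.

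The libraries were ATAC-seq libraries, in which the Tn5 transposase cuts accessible DNA, from 13 cultures of oligodendrocyte progenitor cells (OPCs), the dividing precursors of myelinating cells. Litters of the line written AMGFAP-Cre;K27M in the labels were dissected at P5 to P7, and brainstem or dorsal telencephalon tissue, labelled cortex and made up of cortex, corpus callosum and hippocampus, was pooled by region and genotype. OPCs were panned on an antibody to PDGFRa and grew in proliferation medium without differentiation. The groups were 3 control brainstem cultures (numbers 51, 59 and 61), 3 K27M brainstem cultures (41, 59 and 61), 3 control telencephalon cultures (51, 59 and 61) and 4 K27M telencephalon cultures (41, 51, 59 and 61). K27M cultures carry the lysine-to-methionine mutation of histone H3.3 from the endogenous H3-3a locus, switched on by a Cre transgene, hGFAP-Cre in the study's methods, which acts in neural stem and progenitor cells and so in most glia and many neurons. Mice were on an FVB background. Control cultures came from littermates, and their own alleles are not given in the labels. Each culture pooled several pups, so spread between libraries is spread between pools.

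Hox genes encode homeodomain transcription factors that give the hindbrain and spinal cord their identity along the head-to-tail axis. Their order on the chromosome follows that axis: genes at the Hotairm1 end are active furthest forward, in the hindbrain, and genes at the Hoxa10 end furthest back. The forebrain, the source of the telencephalic cultures, forms in front of the domain of Hox expression. In cells without Hox expression the clusters are held silent under the Polycomb mark H3K27me3, which the K27M histone reduces. Accessibility at a promoter is not expression.

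The sequences that follow are from the 4 places of the window with a peak in every brainstem library (Hotairm1, Hoxa2, the Hoxa3 gene body and Hoxa5), and from Hoxa9, a promoter without a peak in any library. Promoters run from 250 bases before to 50 after a RefSeq transcription start, and for the peaks the central 300 bases of the stretch shared by the peaks of all 6 brainstem libraries are given. All are from GRCm38.p6, the assembly of mm10, and CpG dinucleotides are in capitals. The Hotairm1 peak stretch lies at chr6:52158671-52158970 (plus strand), the Hoxa2 promoter at chr6:52164782-52165081 (minus strand), the Hoxa3 gene-body stretch at chr6:52172041-52172340 (plus strand), the Hoxa5 promoter at chr6:52204538-52204837 (minus strand) and the Hoxa9 promoter at chr6:52227321-52227620 (minus strand). The Hoxa5 promoter lies just upstream of the stretch that the peaks of all 6 brainstem libraries share there (chr6:52203875-52204531).
Hotairm1 peak: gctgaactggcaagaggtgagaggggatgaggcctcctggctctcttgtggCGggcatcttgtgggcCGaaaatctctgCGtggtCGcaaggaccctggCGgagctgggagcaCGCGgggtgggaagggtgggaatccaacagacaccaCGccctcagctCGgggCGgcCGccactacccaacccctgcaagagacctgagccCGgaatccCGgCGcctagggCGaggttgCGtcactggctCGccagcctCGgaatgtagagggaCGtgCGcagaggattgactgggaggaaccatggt
Hoxa2 promoter: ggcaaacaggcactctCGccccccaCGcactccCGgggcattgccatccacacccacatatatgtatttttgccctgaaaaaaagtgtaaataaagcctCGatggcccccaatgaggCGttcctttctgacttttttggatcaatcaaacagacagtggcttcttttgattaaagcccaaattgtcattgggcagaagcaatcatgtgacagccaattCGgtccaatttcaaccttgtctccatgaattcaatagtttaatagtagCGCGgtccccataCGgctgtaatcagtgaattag
Hoxa3 gene-body peak: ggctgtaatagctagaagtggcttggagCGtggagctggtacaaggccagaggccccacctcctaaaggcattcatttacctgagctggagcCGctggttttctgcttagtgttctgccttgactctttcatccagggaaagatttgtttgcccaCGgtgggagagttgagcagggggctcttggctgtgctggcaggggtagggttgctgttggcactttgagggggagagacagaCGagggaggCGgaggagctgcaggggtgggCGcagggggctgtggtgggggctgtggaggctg
Hoxa5 promoter: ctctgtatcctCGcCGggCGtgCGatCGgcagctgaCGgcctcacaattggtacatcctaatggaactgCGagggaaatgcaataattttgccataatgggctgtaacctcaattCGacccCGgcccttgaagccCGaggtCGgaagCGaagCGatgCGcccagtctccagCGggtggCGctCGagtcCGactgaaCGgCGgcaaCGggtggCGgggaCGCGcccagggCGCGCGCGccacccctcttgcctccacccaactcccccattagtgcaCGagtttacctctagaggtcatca
Hoxa9 promoter: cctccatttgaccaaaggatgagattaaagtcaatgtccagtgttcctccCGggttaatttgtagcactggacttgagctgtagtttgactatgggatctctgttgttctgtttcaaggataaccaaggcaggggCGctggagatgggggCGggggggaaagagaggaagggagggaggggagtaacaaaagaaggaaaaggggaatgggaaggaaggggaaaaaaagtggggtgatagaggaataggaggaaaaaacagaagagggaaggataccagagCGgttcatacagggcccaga

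The 300 bases at Hoxa5 hold 29 CpG dinucleotides and those at the Hotairm1 peak 20, whereas those at Hoxa2 hold 9, at the Hoxa3 gene-body peak 6 and at Hoxa9 4. The number of CpG over that expected from the base composition was 1.02 at the Hoxa5 promoter, above 95.1% of 32817 RefSeq promoters, and 0.59 at Hoxa2 and 0.28 at Hoxa9. RefSeq promoter windows were found for 7 of the 9 genes, with Hoxa4 and Hotairm1 unmatched. Of these, the promoter of Hoxa6, also without a peak in any library, had 26 CpG dinucleotides and a ratio of 0.92. A CpG-rich promoter was thus not a called promoter in every case.

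HoxA peaks were called in every brainstem library and were few or missing in telencephalon libraries. Brainstem libraries had a peak at 4 to 7 of the 9 promoters, and telencephalon libraries at 0 to 3. Over all protein-coding genes, a promoter peak was called at 55.0 to 64.0% in brainstem and 44.4 to 63.5% in telencephalon libraries, so the 2 regions overlapped in that share. The numbers were 5, 4 and 5 in control brainstem cultures 51, 59 and 61, and 7, 4 and 4 in K27M brainstem cultures 41, 59 and 61. They were 2, 0 and 3 in control telencephalon cultures 51, 59 and 61, and 0, 3, 2 and 1 in K27M telencephalon cultures 41, 51, 59 and 61. The 2 regions did not overlap in this number, which averaged 4.83 ± 1.17 (SD, n = 6) in brainstem and 1.57 ± 1.27 (SD, n = 7) in telencephalon. As a count over chosen genes it was not tested.

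**Figure D1:**
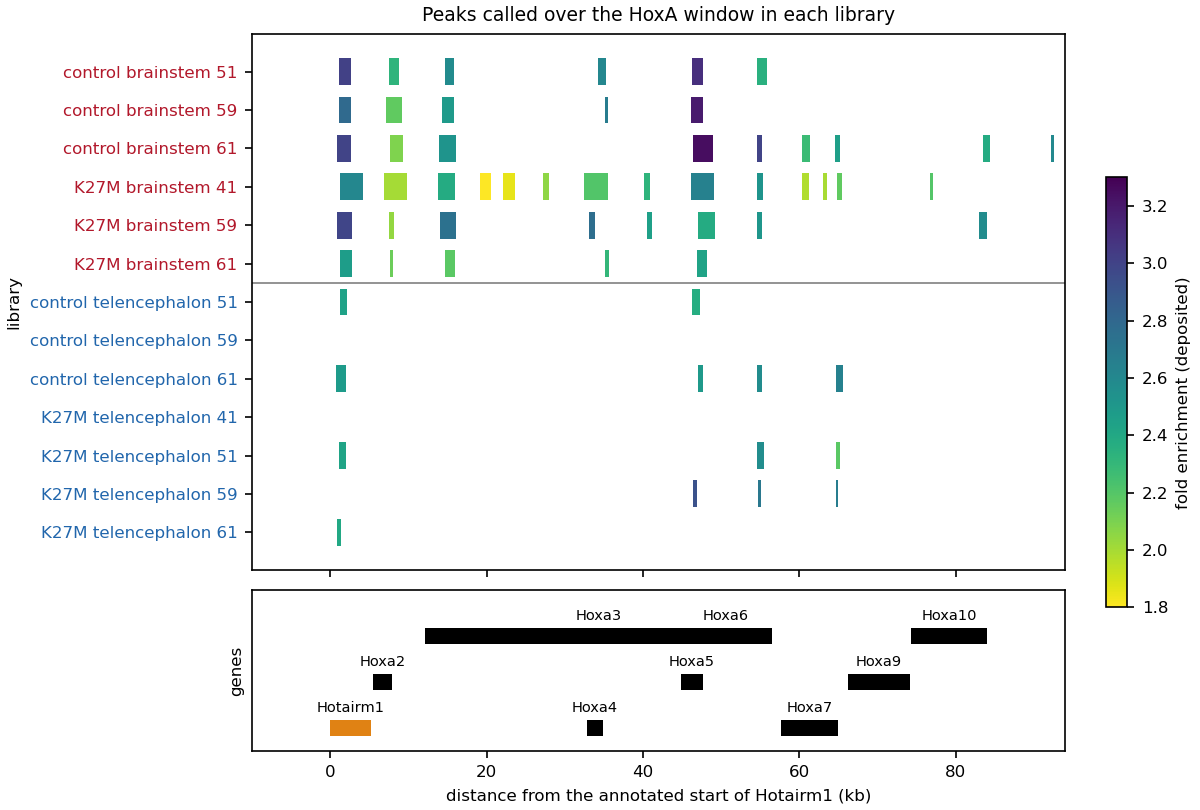
Peaks of each library over the HoxA window (upper panel, bars to scale, coloured by deposited fold enrichment), with brainstem libraries in red and telencephalon libraries in blue, and the 9 genes below (black, minus strand; orange, plus strand). The x axis is the distance from the annotated start of Hotairm1 in kb; brainstem libraries have 5 to 14 peaks each, telencephalon libraries 0 to 4.

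The window tells the same in base pairs. Peaks covered 7824, 7045 and 12014 bp in the control brainstem libraries and 21164, 9514 and 4960 bp in the K27M brainstem libraries. They covered 1875, 0 and 3385 bp in the control telencephalon libraries and 0, 2386, 1173 and 580 bp in the K27M telencephalon libraries. The lowest brainstem library thus had more HoxA sequence in peaks than the highest telencephalon library. Over the whole genome, peaks covered 22.1 to 47.3 Mb in brainstem and 12.2 to 48.5 Mb in telencephalon libraries, which overlap. Other stretches of this length were not examined, so how often regions separate in this way is unknown. Of the 16 merged peaks all included a brainstem library, 12 included brainstem libraries alone, 4 included libraries of both regions, and 0 included telencephalon libraries alone.

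Longer peak lists mostly went with more base pairs in peaks among brainstem libraries, and less regularly so among telencephalon libraries. List length did not separate the regions. Lists held 27768 to 52466 peaks in brainstem and 16879 to 52164 in telencephalon. The shortest brainstem list, that of K27M brainstem 61, covered 4960 bp of the window, and the longest telencephalon list, that of K27M telencephalon 51, covered 2386 bp in a list of 52164 peaks. K27M telencephalon 41, with 39038 peaks, had none in the window. The lists carry no read counts, so sequencing depth is unknown and a missing peak means only that none was called. Among checks of the label, the promoters of 5 of the 6 OPC genes listed (Pdgfra, Olig2, Olig1, Sox10, Cspg4 and Nkx2-2) were called in all 13 libraries, and Cspg4 in 3. Per library, promoters were called at 0 to 2 of 4 microglial genes, 0 to 2 of 4 endothelial, 0 to 2 of 4 mature oligodendrocyte, 1 to 4 of 4 astrocyte and 3 to 4 of 4 neuronal genes, and the part of other cell types in the HoxA calls was not tested. At the mutated gene, written H3f3a in the annotation, a promoter peak was called in all 13 libraries, which carries no allele information.

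**Figure D2:**
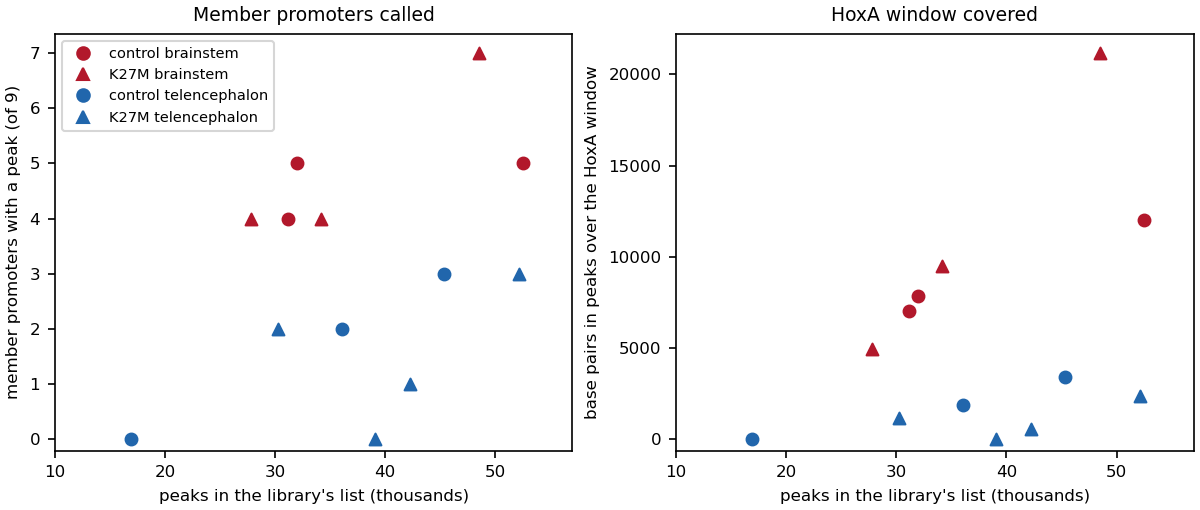
Number of the 9 promoters with a peak (left) and base pairs in peaks over the HoxA window (right) against the number of peaks in the library's list, in units of 1000 peaks, for each of 13 libraries (red, brainstem; blue, telencephalon; circles, control; triangles, K27M). The brainstem libraries have 4 or more promoters called and the telencephalon libraries 3 or fewer.

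At the Hotairm1 end, the Hotairm1 promoter carried the peak of lowest p in the window in 5 of 6 brainstem libraries, Hoxa5 taking that place in control brainstem 59. Hotairm1 (chr6:52156902-52162119) is a non-coding RNA gene on the strand opposite to the Hox genes, known as a regulator of neighbouring HoxA genes. Its merged peak (chr6:52157651-52161018) covers a Hotairm1 exon and was called in 6 of 6 brainstem and 4 of 7 telencephalon libraries (two-sided Fisher's exact p = 0.192, outside the 5 to 8 libraries required for adjustment). The fold enrichment, which MACS2 gives relative to local background in the same library, was 3.01, 2.79 and 3.00 in control brainstem libraries 51, 59 and 61 and 2.60, 2.99 and 2.47 in K27M brainstem libraries 41, 59 and 61. It was 2.44 and 2.48 in control telencephalon libraries 51 and 61 and 2.42 and 2.40 in K27M telencephalon libraries 51 and 61. The means were 2.81 ± 0.23 (SD, n = 6) in brainstem and 2.44 ± 0.03 (SD, n = 4) in the telencephalon libraries that had the peak, with K27M brainstem 61 alone below the highest of them. Within its own list the fold stood at the 14.6 to 51.8 percentile in brainstem and the 12.6 to 23.0 percentile in telencephalon.

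The Hotairm1 peak was also wider in brainstem. It spanned 1562, 1463 and 1812 bp in control brainstem libraries and 2904, 1928 and 1500 bp in K27M brainstem libraries. In the telencephalon libraries with a call it spanned 841, 1217, 891 and 580 bp. The widths of the regions did not overlap. The same peak overlaps the promoter windows of other annotated genes, among them the small RNA gene Gm27867, called in the same 10 libraries, and Gm27861, called in 6 brainstem and 0 telencephalon libraries, so the accessible stretch cannot be given to Hotairm1 alone.

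Hoxa2, the Hox gene expressed furthest forward in the hindbrain, had a promoter peak in every brainstem library and in no telencephalon library. This gave the smallest p that 6 against 7 libraries allow (two-sided Fisher's exact p = 0.000583), which did not pass Benjamini-Hochberg adjustment over the 1815 promoters found in 5 to 8 libraries (adjusted p = 0.212). Such complete separation in this direction was seen at 5 of those promoters (0.275%). These included the neighbouring gene Hoxaas2, which shares the Hoxa2 peak, and Gm27861, which overlaps the Hotairm1 peak. Outside the HoxA window Gm12811 alone was among them, so the 5 are not separate cases. The merged peak (chr6:52163744-52166729) covers the coding sequence and start of Hoxa2, and the start region of Hoxaas2, a non-coding gene next to it. Among 11706 merged peaks tested, 5 (0.0427%) separated the regions in this way, and 2 of these lay in the HoxA window (adjusted p of each = 0.840).

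By fold, the Hoxa2 peaks were among the weakest called. Their fold enrichment was 2.32, 2.16 and 2.09 in control brainstem libraries 51, 59 and 61 and 2.00, 2.04 and 2.14 in K27M brainstem libraries 41, 59 and 61, with a mean of 2.13 ± 0.11 (SD, n = 6). These values stood at the 0.28 to 2.64 percentile of fold in their own lists. The peak spanned 1342, 2113 and 1742 bp in the control and 2986, 717 and 317 bp in the K27M libraries. The −log10 p of these peaks ran from 3.43 to 5.14, against 5.07 to 11.1 for the Hotairm1 peak in the same libraries. Ranked from the lowest p, the Hoxa2 peaks stood at 58.6% (K27M brainstem 41) to 95.3% (K27M brainstem 61) of their lists.

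Hoxa3, which patterns the posterior hindbrain and the pharyngeal arches, differed between its gene body and its starts. A merged peak over coding sequence and intron of Hoxa3 (chr6:52170712-52173013) was called in 6 of 6 brainstem and 0 of 7 telencephalon libraries (two-sided Fisher's exact p = 0.000583). It lies outside the promoter windows of the 4 annotated Hoxa3 starts and within that of Gm15050. Its fold was 2.58, 2.49 and 2.53 in control brainstem libraries and 2.38, 2.74 and 2.18 in K27M brainstem libraries, at the 2.34 to 24.1 percentile of their lists. It spanned 1188, 1541 and 2245 bp in the control and 2124, 1929 and 1251 bp in the K27M brainstem libraries. The K27M and control libraries overlap in both measures.

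At the starts of Hoxa3, a promoter peak was called in 2 of 6 brainstem and 1 of 7 telencephalon libraries (two-sided Fisher's exact p = 0.559). The peak behind these calls lies near the most distant start, between Hoxa6 and Hoxa7 (chr6:52211414-52212687), and as a merged peak was found in 4 of 6 brainstem and 3 of 7 telencephalon libraries (two-sided Fisher's exact p = 0.592, adjusted p = 1). It reached into the promoter window by 573, 76 and 274 bp in 3 libraries and ended 12 to 155 bp short of it in the other 4, so the count at the promoter depended on where the caller ended the peak. In fold it ranged from 2.35 to 3.00 in brainstem and from 2.57 to 2.70 in telencephalon, which overlap. In K27M brainstem 41 alone a further peak lay at another Hoxa3 start.

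In the middle of the cluster, Hoxa4 and Hoxa5, active in the posterior hindbrain and cervical cord, had peaks mainly in brainstem libraries. The Hoxa4 promoter was called in 4 of 6 brainstem and 0 of 7 telencephalon libraries (two-sided Fisher's exact p = 0.0210, in too few libraries to be adjusted). An unadjusted p under 0.05 with more brainstem calls was reached by 1.32% of the promoters tested. The merged peak there (chr6:52189283-52192580) also included K27M brainstem 59, whose peak lay further into the gene, which made 5 of 6 brainstem libraries (two-sided Fisher's exact p = 0.00466, adjusted p = 0.840). An unadjusted p under 0.05 in this direction was reached at 1.11% of the merged peaks tested. The fold was 2.61 and 2.68 in control brainstem 51 and 59 and 2.21, 2.76 and 2.31 in K27M brainstem 41, 59 and 61. The individual peaks were 416 to 3138 bp wide and had no stretch common to all 5 libraries.

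Hoxa5 had the highest single fold in the window, in control brainstem 61, while Hotairm1 was higher than Hoxa5 in K27M brainstem 59 and 61. Its merged peak (chr6:52203020-52206065), over the start and coding sequence of the gene, was called in 6 of 6 brainstem and 3 of 7 telencephalon libraries (two-sided Fisher's exact p = 0.0699, found in too many libraries for adjustment). The fold was 3.10, 3.19 and 3.25 in control brainstem libraries 51, 59 and 61 and 2.65, 2.38 and 2.43 in K27M brainstem libraries 41, 59 and 61. It was 2.37 and 2.49 in control telencephalon libraries 51 and 61 and 2.92 in K27M telencephalon 59. The fold of the regions overlapped, with the 3 K27M brainstem values inside the telencephalic range. The percentile within the list was 3.39 to 62.6 in brainstem and 13.3 to 44.1 in telencephalon.

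The width at Hoxa5 did not overlap between regions. It was 1445, 1512 and 2543 bp in control brainstem, 2875, 2191 and 1325 bp in K27M brainstem, and 1034, 627 and 523 bp in the 3 telencephalon libraries with a call. Counted as base pairs in peaks, with 0 where no peak was called, the Hoxa5 peak had 1982 ± 648 bp (SD, n = 6) in brainstem and 312 ± 419 bp (SD, n = 7) in telencephalon, and the Hotairm1 peak 1862 ± 543 bp and 504 ± 507 bp.

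All 4 merged peaks of the window that were called in every brainstem library, at Hotairm1, Hoxa2, the Hoxa3 gene body and Hoxa5, had more base pairs in peaks in each brainstem library than in any telencephalon library. In the genome, 18780 merged peaks were called in every brainstem library, and 19 of them (0.101%) did so. Of these 19, 4 lay in the HoxA window and 0 near a gene of the other 3 Hox clusters. Among the 18775 that were also called in at least 1 telencephalon library the number was 14 (0.0746%), Hotairm1 and Hoxa5 among them. At Hoxa2 and the Hoxa3 gene body the result follows from the calls alone, since no telencephalon library had a peak there. In the other direction, 14064 merged peaks were called in every telencephalon library. Of those, 6 had more base pairs in each telencephalon library than in any brainstem library. This comparison of base pairs was chosen after the values had been seen and carries no test.

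**Figure D3:**
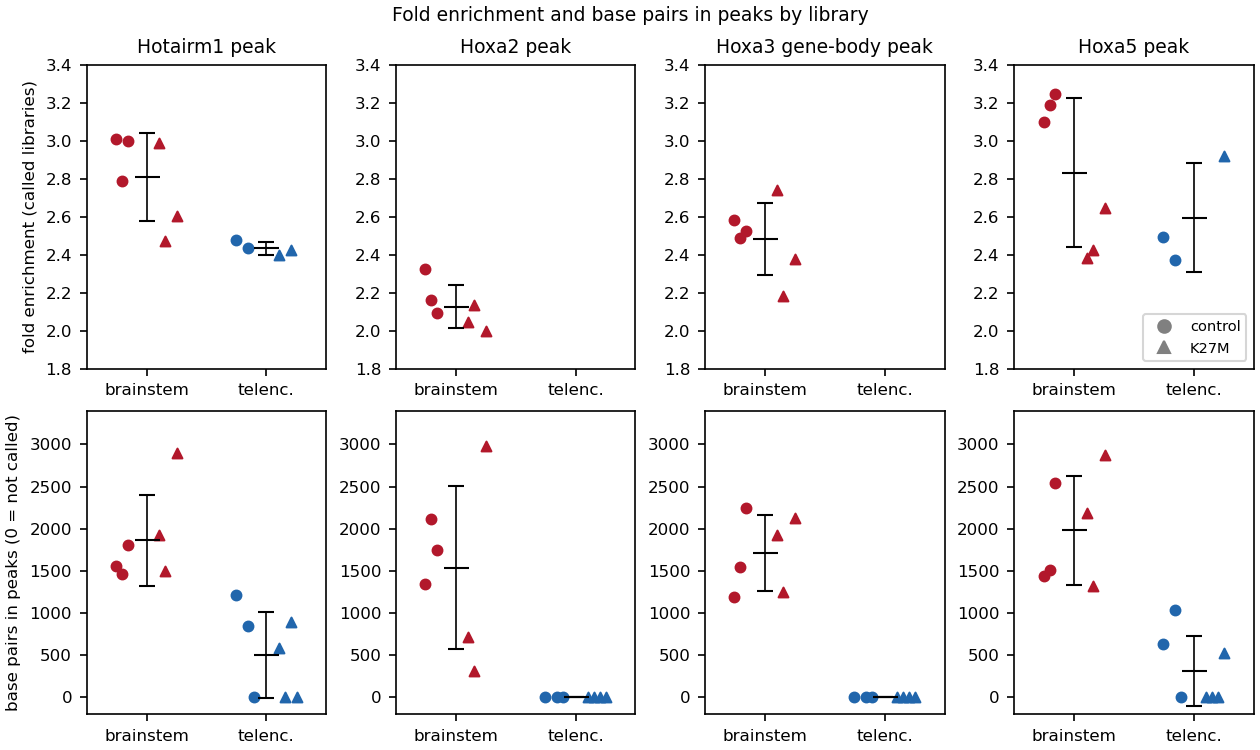
Fold enrichment in the libraries with a call (upper row) and base pairs in peaks with 0 for no call (lower row) at the 4 merged peaks called in every brainstem library. Points are single libraries (red, brainstem; blue, telencephalon; circles, control; triangles, K27M) and bars are the mean ± SD; in base pairs no telencephalon library reaches a brainstem library, while at Hoxa5 the 3 control brainstem folds lie above the 3 K27M folds.

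Further along the cluster, peaks were rarer, and calls at the Hoxa7 promoter did not favour brainstem. The promoter of Hoxa6 was called in 0 of 13 libraries. Hoxa7 was the only one of the 9 genes called in a larger share of telencephalon libraries, 3 of 7 against 2 of 6 (two-sided Fisher's exact p = 1, adjusted p = 1). Its main merged peak (chr6:52221476-52222416) had a fold of 2.46 and 2.17 in control brainstem 61 and K27M brainstem 41, and of 2.65, 2.18 and 2.67 in control telencephalon 61 and K27M telencephalon 51 and 59. These values overlap. In both brainstem libraries other peaks lay over the Hoxa7 gene as well. Of the 16 merged peaks of the window 6 came from 1 library, 5 of these from K27M brainstem 41 and 1, 8395 bp beyond the Hoxa10 start, from control brainstem 61.

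Hoxa9 and Hoxa10, genes of the posterior end that act in the trunk and limbs, were nearly without peaks. Hoxa9 was called in 0 of 13 libraries. Hoxa10 was called in 3 of 6 brainstem libraries and 0 of 7 telencephalon libraries (two-sided Fisher's exact p = 0.0699). The 3 peaks had a fold of 2.38 in control brainstem 61, 2.204 in K27M brainstem 41 and 2.58 in K27M brainstem 59, and widths of 902, 319 and 913 bp. They fell at 2 places, since that of K27M brainstem 41 lay at an inner start (chr6:52233652-52233970) and the others at the outer start (chr6:52239915-52241265).

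Coverage was then compared by stretch. From the outer end to Hoxa3, brainstem libraries had 13.5 ± 7.40% of bases in peaks (SD, n = 6) and telencephalon libraries 1.18 ± 1.18% (SD, n = 7). From Hoxa4 to Hoxa7 the shares were 12.6 ± 7.72% and 2.51 ± 2.58%. From Hoxa9 to the far end they were 1.55 ± 2.07%, with 3 brainstem libraries at 0, and 0% in all 7 telencephalon libraries. The first stretch separated the regions without overlap (lowest brainstem 7.17%, highest telencephalon 2.85%), and the second overlapped, at 5.66% in the lowest brainstem and 6.49% in the highest telencephalon library. The cut was made at Hoxa4, so the peak near the most distant Hoxa3 start counts in the second stretch. It gave 656 of the 2168 bp of control telencephalon 61, the highest library there. K27M brainstem 61, the lowest brainstem library, had 1892 bp without that peak. The first 2 stretches did not differ in a common direction, since the telencephalon mean was higher in the second and 3 of 6 brainstem libraries also had more there.

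**Figure D4:**
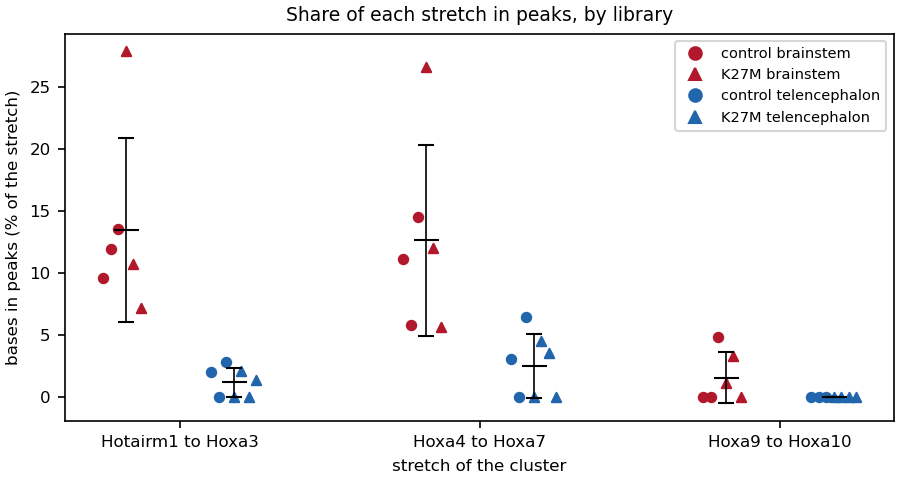
Share of bases in peaks, in percent, in 3 stretches of the HoxA window for each library (red, brainstem; blue, telencephalon; circles, control; triangles, K27M), with the mean ± SD. Brainstem libraries lie at 7.17 to 27.9% in the first stretch and at 0 to 4.87% in the last, where all 7 telencephalon libraries are at 0.

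In total, 6 of the 9 promoters were called in a larger share of brainstem than of telencephalon libraries, 1 in a larger share of telencephalon libraries and 2 in no library. Of all 1815 promoters tested, 43.7% had a larger share in brainstem. Only Hoxa2 and Hoxa7 were among the promoters tested, so no share of the 9 can be set against this figure directly. By Fisher's exact test, 0 of 1815 promoters passed adjustment (0%) and 39 had an unadjusted p under 0.05, with 24 of them more often in brainstem.

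Lists of equal length left fewer calls, and all of them in brainstem. When only the 16879 peaks of lowest p were kept per library, the length of the shortest list, Hotairm1 was called in 6 of 6 brainstem and 0 of 7 telencephalon libraries and Hoxa5 in 4 of 6 and 0 of 7, and the other 7 promoters in none. Hotairm1 then had the smallest exact p possible, 0.000583, which did not pass adjustment over 1839 promoters (two-sided Fisher's exact test, adjusted p = 0.119), and 0.272% of these separated the regions in the same way. Among 4229 merged peaks the share was 0.331%, and the adjusted p of the Hotairm1 peak was 0.112. The Hoxa3 gene-body peak was left in 3 of 6 brainstem libraries and the Hoxa2 peak in 0. At a p of at most 1e-10, the peaks left in the window were those at Hotairm1 in control brainstem 61 and K27M brainstem 41.

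**Figure D5:**
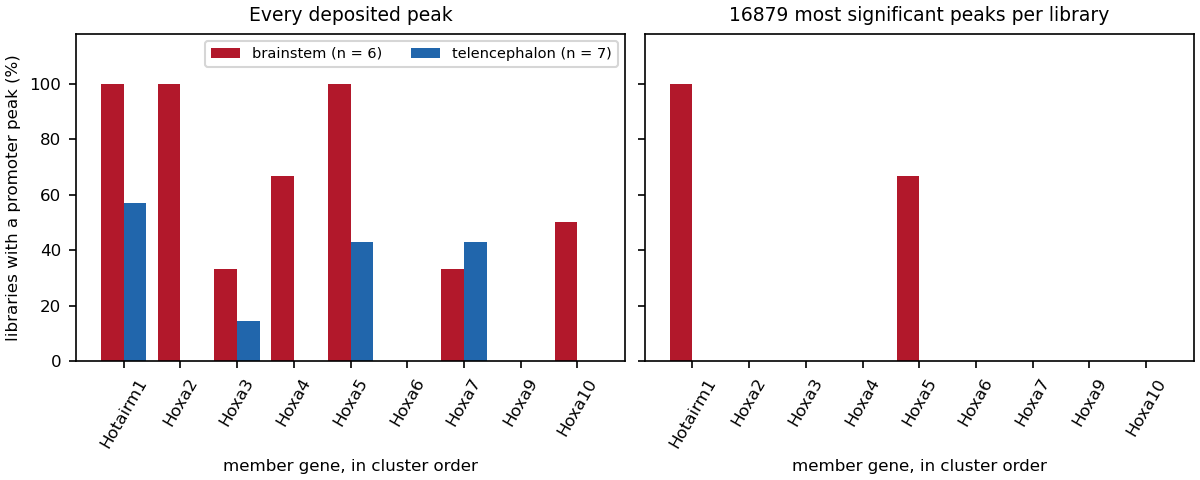
Percent of libraries with a promoter peak at each of the 9 genes in cluster order, for 6 brainstem libraries (red) and 7 telencephalon libraries (blue), with every deposited peak (left) and with the 16879 most significant peaks of each library (right). At equal peak number the bars that remain are brainstem bars, at Hotairm1 (100%) and Hoxa5 (66.7%).

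By genotype, no promoter of the cluster differed past the threshold. Of the 9 promoters, 3 were called in a larger share of K27M than of control libraries, 4 in a smaller share, and 2 in none. The exact p for genotype was 0.559 at Hoxa5 (4 of 7 K27M and 5 of 6 control libraries) and 1 at the other 8 genes, while 1.21% of promoters and 1.26% of merged peaks had an unadjusted p under 0.05. Within brainstem, Hotairm1, Hoxa2 and Hoxa5 were called in 3 of 3 control and 3 of 3 K27M libraries and Hoxa4 in 2 of 3 of each. With 3 against 3 libraries the exact test cannot fall below 0.1.

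In fold enrichment, K27M brainstem libraries were below control brainstem libraries at Hoxa5. The log2 difference of K27M from control was −0.36 (95% confidence interval −0.67 to −0.04, SE 0.16, n = 3 and 3), with all 3 K27M values under all 3 control values. With the culture number as a block it was −0.42, with an interval that takes in 0 (−0.88 to 0.04, limma adjusted p = 1.00). The same non-overlap was seen at 3.02% (568) of the 18780 merged peaks called in every brainstem library, and the limma adjusted p over those peaks was 1.00. The reverse, every K27M value above every control value, was seen at 120 of them. The Hoxa5 peaks also covered different stretches. They began at positions 52203020 to 52203246 in the controls and at 52203051, 52203875 and 52203796 in K27M brainstem 41, 59 and 61. At the other peaks the log2 differences were −0.13 at Hotairm1 (−0.44 to 0.18), −0.09 at Hoxa2 (−0.40 to 0.22) and −0.06 at the Hoxa3 gene body (−0.38 to 0.25), and the limma adjusted p of each was 1.00. Over all peaks limma called 1 (0.00532%), outside the HoxA window. These intervals leave room for changes of either sign at the last 3 peaks. In the main fit (SE 0.16) and the fit with the block (SE 0.23) limma gave the same SE at every peak listed here. The intervals given here thus rest on a spread pooled over peaks, not on the values of each peak alone. With folds centred on the median of each library, the SE differed between peaks, from 0.110 at Hoxa5 to 0.121 at Hoxa2.

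Regional calls were seen in each genotype. Hoxa2 was called in 3 of 3 control and 3 of 3 K27M brainstem cultures against 0 of 3 control and 0 of 4 K27M telencephalon cultures, and the Hotairm1 promoter in 2 of 3 and 2 of 4 of the latter. K27M brainstem 41 stood apart, with 14 peaks and 21164 bp in the window. Without it the difference in mean base pairs between regions was 6929 bp in place of 9077 bp, and Hoxa2 remained called in all 5 other brainstem libraries and no telencephalon library.

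In base composition, the HoxA peaks were richer in GC and CpG than the median peak. The merged peaks of the window had a median GC content of 55.6%, against 47.2% for 99647 merged peaks on assembled chromosomes, and a median CpG ratio of 0.50 against 0.22. In 15 of the 16 the CpG ratio was above the median of all merged peaks. It was 0.75 at Hoxa5 and 0.72 at Hoxa4, and lower, 0.49, 0.46 and 0.39, at Hotairm1, Hoxa2 and the Hoxa3 gene body.

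Motifs were searched on both strands. The letters TGATNNAT, a site for Hox proteins with their Pbx partners, matched 53 times in the window, 12 of them in 5 of the 16 merged peaks. All 16 merged peaks together make up 24.4% of the window. Of the 12 matches, 7 lay in the Hoxa2 peak. The Hoxa2 promoter shown above was the only 1 of 8 windows of these genes with a match (chr6:52164935-52164942), and 8.86% of all RefSeq promoters had a match. In the central 300 bases, 1 of the 16 merged peaks (Hoxa5) had this motif, against 11.6% of all merged peaks. The letters AGGGGGCGC, the core of a CTCF site, matched once (chr6:52191332-52191340), in the Hoxa4 peak, and in 0 of 8 promoter windows against 1.24% of all. A retinoic acid repeat, AGGTCA or AGTTCA followed after 5 bases by either, had 0 matches in the window and occurs in 0.04% of all RefSeq promoters. The CTCF match overlapped no Hox-Pbx match.

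In the HoxB cluster, the counterpart of HoxA on another chromosome, all promoter calls were in brainstem libraries. Of its 9 genes from Hoxb1 to Hoxb9, 6 were called more often in brainstem, 4 of them with an unadjusted p under 0.05, and 3 in no library. Over all promoters tested these shares were 43.7% and 1.32%, but Hoxb3 alone of the 9 was found in enough libraries to be tested. Hoxb3 was called in 5 of 6 brainstem and 0 of 7 telencephalon libraries (two-sided Fisher's exact p = 0.00466, adjusted p = 0.564), and Hoxb2 and Hoxb4 in 4 of 6 and 0 of 7.

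Most genes that act with Hox proteins or upstream of them were called in too many or too few libraries to be adjusted by region. The number adjusted was 0 of the cofactor genes, 1 of the Polycomb and trithorax genes, 1 of the retinoic acid genes and 0 of the upstream factor genes. No gene so adjusted passed, and for the rest adjustment gives no answer. Promoters of 7 of 9 cofactor genes (the Meis, Pbx and Pknox families) were called in all 13 libraries, as were 12 of 15 Polycomb and trithorax genes, and neither list had a promoter with an unadjusted p under 0.05 by region. Kdm6b, an H3K27 demethylase gene, was called in 4 of 6 brainstem and 2 of 7 telencephalon libraries (two-sided Fisher's exact p = 0.286, adjusted p = 1). Of 14 genes of retinoic acid synthesis, breakdown and reception, 3 were called in all libraries, 7 more often in brainstem and 3 more often in telencephalon. Over all promoters tested, 43.7% had a larger share in brainstem, but only 1 of these 14 was tested. Per library, 7 to 11 of the 14 were called in brainstem and 3 to 11 in telencephalon. The value of 3 was that of control telencephalon 59, the shortest list. Crabp2, a retinoic acid carrier, was called in 3 of 6 brainstem and 0 of 7 telencephalon libraries (two-sided Fisher's exact p = 0.0699). Of 6 upstream factor genes, 2 were called in all libraries.

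Outside the window, the promoter whose calls matched those of Hoxa2 in all 13 libraries was that of the non-coding gene Gm12811. It was followed by 6 genes that differed from Hoxa2 in 1 library, among them Hoxb3 and Pax3, a regulator of dorsal neural progenitors, both called in 5 of 6 brainstem libraries and 0 of 7 telencephalon libraries. Likeness here is the number of the 13 libraries in which the calls differ, and is a description.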

How the data were processed

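ATAC-seq was measured in 13 OPC cultures. The authors trimmed reads (Trim Galore 0.6.7, cutadapt 3.4), aligned them to mm10 with BWA 0.7.17-r1188 in the nf-core ATAC-seq pipeline 2.1.2 and, after dropping reads over blacklisted regions, ran MACS2 2.2.7.1 for broad peaks in each library by itself. The deposited fold enrichment is a ratio to local background within a library, not normalized between libraries. The deposited −log10 p and −log10 q are averages over a peak, and the deposited score (10 times the −log10 q) served only to check the format. The lists hold no read counts, so depth is unknown and no counting interval can be given; the calling cutoff is not given in the sources used here. Fold percentile is the rank of a fold within its own list.

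Peaks overlapping by 1 bp were merged over libraries. Detection was compared with two-sided Fisher's exact tests over features found in 5 to 8 libraries, adjusted by Benjamini-Hochberg and called under 0.05 (Python 3.11.15, scipy 1.17.1). Fold in brainstem was compared on the log2 scale with limma 3.58.1 in R 4.3.3. Both were tested on simulated data. Alternatives were equal peak number, a stricter p, other promoter windows, overlaps, filters and merging, leave-one-out and a replicate block. The members and gene lists were chosen with earlier results of these data known. Genes named are all 9 members, up to 6 others sharing a peak with one, up to 3 of each list with the largest regional difference, and up to 5 most like Hoxa2; genes of the OPC marker list are named as listed, and Gm15050, Gm12811 and H3f3a by position, likeness or mutation. The study's own tests allowed for matched cultures where possible; here culture numbers entered only the block. Nothing says whether cultures of a group came from separate litters, so p-values measure spread between these samples, pooled over peaks in limma.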

Additional observations from a re-analysis of the deposited data

Results flagged for a closer look

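Of 27 sets of 4 to 10 library values checked, 3 held a value far from the rest, where chance alone gives about 1 in 20, and all were K27M brainstem 41 against the other brainstem libraries. It had a peak at 7 of the 9 promoters, against 5 in the next library. Its peak at Hotairm1 spanned 2904 bp, against 1928 bp in the next, and its peak at Hoxa4 3138 bp, against 1013 bp. Its list, of 48487 peaks, was the second longest in brainstem after that of control brainstem 61, with 52466 peaks and 5 promoters called. Its median fold over all peaks was 2.84, the lowest of the 6 brainstem libraries (next 2.86). The part of list length in these values was not tested.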

How the results depend on the processing

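The counts of promoters and of merged peaks passing adjustment, 0 by region and 0 by genotype with Fisher's exact test, stayed at 0 under equal peak number, the stricter threshold, 1 to 12 libraries, the replicate block, leave-one-out and, for promoters, the narrow window and the 100 bp overlap or, for merged peaks, merging within 500 bp. Unadjusted counts for promoters by region ran from 5 (stricter threshold; also 5 with the block) to 70 (equal peak number) around 39, and by genotype from 0 (block) to 52. For merged peaks by region they ran from 7 to 382 around 276, and by genotype from 0 to 329 around 147, the last without control brainstem 61. The mean difference in promoters called per library, 3.26, was 1.67 at equal peak number and 0.33 at the stricter threshold, and 2.83 to 3.50 when 1 library was left out. In base pairs over the window the difference, 9077, was 4034 at equal peak number, 786 at the stricter threshold and 6929 to 10170 when 1 library was left out. The peaks without overlap between regions, 4, became 1 at equal peak number and 0 at the stricter threshold, both chosen after seeing the data. The 1 limma call became 0 with the replicate block and ranged from 0 to 1 when 1 library was left out, being lost without control brainstem 51 or K27M brainstem 59. Hoxa5 at 500 bp windows was called in a larger share of brainstem libraries by 71.4 percentage points (exact p = 0.0210). Hoxa4 lost its unadjusted p under 0.05 without any 1 telencephalon library (exact p = 0.0606), and Hoxa10 reached 0.0455 (exact) without control brainstem 51 or 59 or K27M brainstem 61. Differences by genotype changed sign at Hoxa3 with the narrow window (−2.38 percentage points), at Hoxa2 (−17.1 to 2.86) and Hoxa4 (−16.7 to 8.57) when 1 library was left out, and at the Hoxa3 gene-body peak in log2 fold (−0.15 to 0.013, the last without K27M brainstem 61); none of these passed a test. The signs turned at Hoxa2 without any 1 control brainstem library and at Hoxa4 without control brainstem 51 or 59. The Hoxa5 log2 fold by genotype ran from −0.42 to −0.33 over all alternatives, with an unadjusted limma p of 0.00622 to 0.0901.

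Libraries that share a culture number were not treated as pairs: at 13075 merged peaks called in all libraries the correlations of their deviations from the group means over 16 pairs ran from −0.10 to 0.27 with a median of 0.09, and 4 were over 0.1. With the replicate block the mean within-pair difference was 3.50 promoters and 9251 bp over 6 pairs, and Hoxa2 had the smallest p that 6 pairs allow (exact p = 0.0313), Hoxa4 0.125 (exact) and Hotairm1, Hoxa5 and Hoxa10 0.25 (exact).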
